A study of Homo sapiens with 6 samples.

Results

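Restriction factors are cellular proteins that block single steps of a viral life cycle. The genes described here were chosen as a list of 10 such genes, IFITM1, IFITM2, IFITM3, BST2, SAMHD1, ISG20, ZC3HAV1, PLSCR1, SAMD9 and SAMD9L, each read by the probe set of that symbol with the highest mean over the arrays. Of the 10 genes 9 were measured, among 14812 genes with a symbol in all, and ZC3HAV1 was not analysed here. Each of the 9 had 1 probe set, and none shared its values with another probe set.

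The cells were HuH7, a human hepatoma line. In every sample they had been given a plasmid expressing PKR, the kinase that senses double-stranded RNA, and poly I:C as a synthetic form of such RNA, together with 50 pmol of a gapmer, a short antisense oligonucleotide that directs RNase H to a matching RNA. The gapmer was a control gapmer in 3 samples and a gapmer targeting EGOT, a long noncoding RNA, in the other 3, and RNA was taken 36 hours after transfection. The design has 1 gapmer for each purpose and no sample without PKR and poly I:C, so the level of these genes before stimulation is not known from it. The labels give the sequence targeted by each gapmer, shown because the comparison rests on this pair of oligonucleotides.
EGOT gapmer: agagacacttagaaga
Control gapmer: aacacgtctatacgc

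Many restriction factors are induced by interferon. Interferon bound to its receptor activates JAK kinases, and a transcription factor complex that includes IRF9 then binds a promoter sequence called the interferon-stimulated response element (ISRE), whose core is a repeat of GAAA. In hepatocytes, as in most cells, double-stranded RNA is sensed as a sign of infection and leads to interferon production. The members act at different steps: IFITM proteins at viral entry, SAMHD1 and ISG20 on nucleotides and RNA, SAMD9 and SAMD9L on protein synthesis, BST2 at virion release, and PLSCR1 at membranes.

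The RefSeq promoter windows of GRCh38.p14, which run from 250 bases before to 50 bases after each gene's start, were searched on both strands for the ISRE core GAAANNGAAA, where overlapping matches were counted apart. A window was listed for 8 of the 9 measured members, that of IFITM2 not being listed. The core was present in 6 of the 8, against 3.65% of the windows of 27305 genes. These 6 were SAMD9, PLSCR1, IFITM1, IFITM3, BST2 and ISG20, and they include both members that fell and 4 that did not pass the test. SAMD9L had no such match, but held AAACTGAAAC, a stretch of the SAMD9 window that overlaps its core match. This form was chosen after the SAMD9L sequence was seen. It was present in 5 of the 8 and in 0.136% of all windows. The 5 include SAMD9 and SAMD9L by choice, and the others, IFITM1, BST2 and ISG20, also carry the core, so the count is a description only. The windows were also searched for another motif, TTCNNNGAA, called GAS. It was present in 3 of the 8, IFITM1, BST2 and PLSCR1, and in 7.88% of all windows.

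The windows of SAMD9 and PLSCR1 are shown because these genes fell, and that of SAMD9L because it is the neighbour and closest relative of SAMD9. Each is the 250 bases before the start, 5′ to 3′ on the gene's strand. Capitals mark GAAANNGAAA, or in SAMD9L AAACTGAAAC.
SAMD9, chr7:93117980-93118229, minus strand: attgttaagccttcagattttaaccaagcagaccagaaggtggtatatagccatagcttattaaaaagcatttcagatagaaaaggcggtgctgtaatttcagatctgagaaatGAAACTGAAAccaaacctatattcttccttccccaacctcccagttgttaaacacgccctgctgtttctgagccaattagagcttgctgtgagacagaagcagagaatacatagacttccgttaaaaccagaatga
SAMD9L, chr7:93148386-93148635, minus strand: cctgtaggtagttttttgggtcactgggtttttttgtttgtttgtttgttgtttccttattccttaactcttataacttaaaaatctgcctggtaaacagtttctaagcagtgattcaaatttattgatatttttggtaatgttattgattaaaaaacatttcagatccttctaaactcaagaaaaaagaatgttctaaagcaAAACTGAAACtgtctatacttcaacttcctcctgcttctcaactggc
PLSCR1, chr3:146544608-146544857, minus strand: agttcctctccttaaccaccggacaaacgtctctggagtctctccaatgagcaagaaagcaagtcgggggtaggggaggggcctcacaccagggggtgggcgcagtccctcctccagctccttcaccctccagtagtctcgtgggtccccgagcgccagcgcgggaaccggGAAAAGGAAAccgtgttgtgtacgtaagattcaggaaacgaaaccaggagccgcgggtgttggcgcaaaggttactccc

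The core began 136 bases before the start in SAMD9 and 79 bases before it in PLSCR1, for which RefSeq lists 2 overlapping windows and the first was used. Short stretches around the match are shown for 4 members that carried the core and did not pass the test, with GAAANNGAAA in capitals.
IFITM1, chr11:313985-314043, plus strand: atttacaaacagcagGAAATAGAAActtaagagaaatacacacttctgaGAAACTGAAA
IFITM3, chr11:320871-320927, minus strand: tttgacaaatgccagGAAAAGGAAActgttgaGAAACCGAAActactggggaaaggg
BST2, chr19:17405730-17405775, minus strand: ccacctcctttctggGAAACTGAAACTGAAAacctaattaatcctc
ISG20, chr15:88638932-88638971, plus strand: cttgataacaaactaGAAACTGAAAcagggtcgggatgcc

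The matches began 40 and 6 bases before the start in IFITM1, where the second runs across the start. They began 52 and 35 bases before it in IFITM3, 130 and 124 in BST2, where they overlap, and 69 in ISG20. A match says only that the letters are there, and the values below are of mature RNA on an array, not of binding at these sites.

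The values are log2 expression levels, so a difference of 1 is a doubling. Over all 44629 probe sets the array medians lay between 5.08 and 5.23, and correlations between arrays were 0.985 to 0.992. EGOT gapmer replicate 2 had the highest median and lay apart on the second principal component, with a score of 16.9 against -13.3 to 5.67 for the other arrays. EGOT itself, which checks the labels, was lower in all 3 EGOT gapmer arrays, the difference being -1.76 (standard error 0.142, limma adjusted p = 0.0076). EIF2AK2, the gene for PKR, also fell, by 0.57 on the log2 scale (limma adjusted p = 0.0119), and the sources used here do not say whether its probe set also reads RNA from the plasmid. Of 11 measured hepatoma markers all were above the median gene level, among them AFP, at 13.3, and ALB, at 13.7 with the control gapmer. Of these 11 markers 1 passed, where 8.41% of all genes and 14.2% of genes above the median level passed. It was APOA1, an apolipoprotein gene, which rose by 0.36 (limma adjusted p = 0.0406). APOA1 did not pass after repeated quantile normalization (0.31, limma adjusted p = 0.0527) or cyclic loess (0.31, limma adjusted p = 0.0513). Nor did it pass with the gene span trend removed (0.29, limma adjusted p = 0.0929) or after the loss of any single array. Because the labels do not state whether replicates were separate cultures, the p-values below cover only the variation among these samples, which may be technical.

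Among the restriction factors, SAMD9 and PLSCR1 fell with the EGOT gapmer and no member rose. SAMHD1, with a log2 difference of -0.40, narrowly missed the threshold, an adjusted p of 0.05 in limma over all 14812 genes. The 3 IFITM genes, BST2, ISG20 and SAMD9L did not pass. The 2 of 9 members called compare with 8.41% of all genes called in either direction, the 2 that fell with 3.21% called lower and the 0 that rose with 5.2% called higher. The members were chosen with earlier results of these data known, so such shares describe and do not test. The 1245 calls over all genes were 770 higher and 475 lower as deposited, 679 and 674 after quantile normalization was repeated, and 644 and 677 after cyclic loess. The call rate depended on brightness, being 14.2% among genes above the median level of 6.16 and 2.57% among the others, and 7 of the 9 members, both called ones included, were above it. Of the 9 members 7 had a difference below 0, against 42.2% of all genes, and their median log2 difference was -0.19, against 0.04 for all genes. The groups did not overlap, with every EGOT gapmer array the lower, in 5 of 9 members and in 11.5% of all genes. No member had every EGOT gapmer array the higher, as 20.2% of all genes did, and 31.7% of all genes were apart in either direction. In bulk RNA, a smaller share of responding cells and less RNA per cell cannot be told apart.

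**Figure D1:**
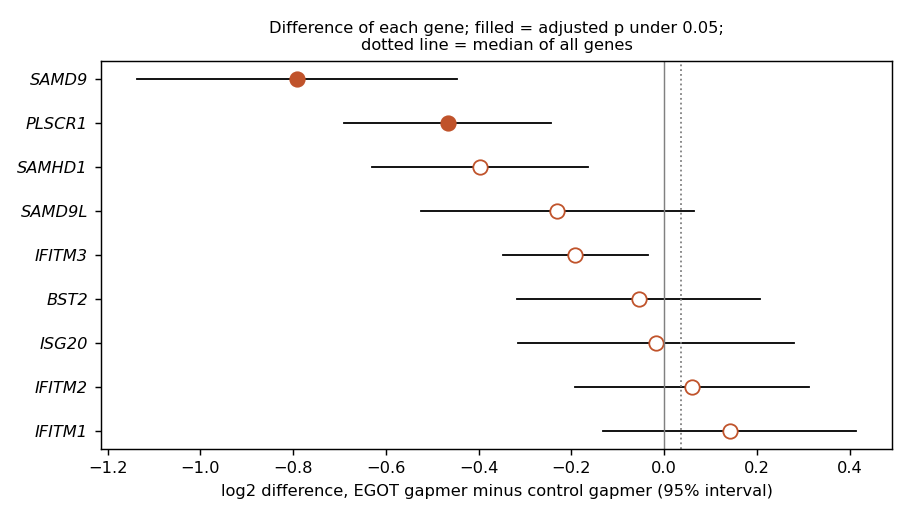
Log2 difference, EGOT gapmer minus control gapmer, of the 9 measured restriction factor genes with its 95% interval (limma, 3 arrays per group). Filled points passed an adjusted p of 0.05 and the dotted line is the median of all genes, 0.04. SAMD9, PLSCR1, SAMHD1 and IFITM3 have intervals below 0, and SAMD9 and PLSCR1 passed.

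SAMD9 encodes a large cytoplasmic protein that halts protein synthesis in infected cells and restricts poxviruses. Its log2 level read 7.35, 7.52 and 7.06 in control gapmer replicates 1 to 3 and 6.73, 6.50 and 6.33 in EGOT gapmer replicates 1 to 3. Every EGOT gapmer array was below every control array, and the gap between the nearest arrays was narrower than the range within the control group. The means were 7.31 ± 0.234 and 6.52 ± 0.202 (SD, n = 3 each). The log2 difference of -0.79 had a standard error of 0.147 and a 95% interval of -1.14 to -0.45 (limma adjusted p = 0.0271), and on the linear scale the EGOT gapmer level was 0.578 of the control. SAMD9 ranked 38 among all 14812 genes by the size of its fall.

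**Figure D2:**
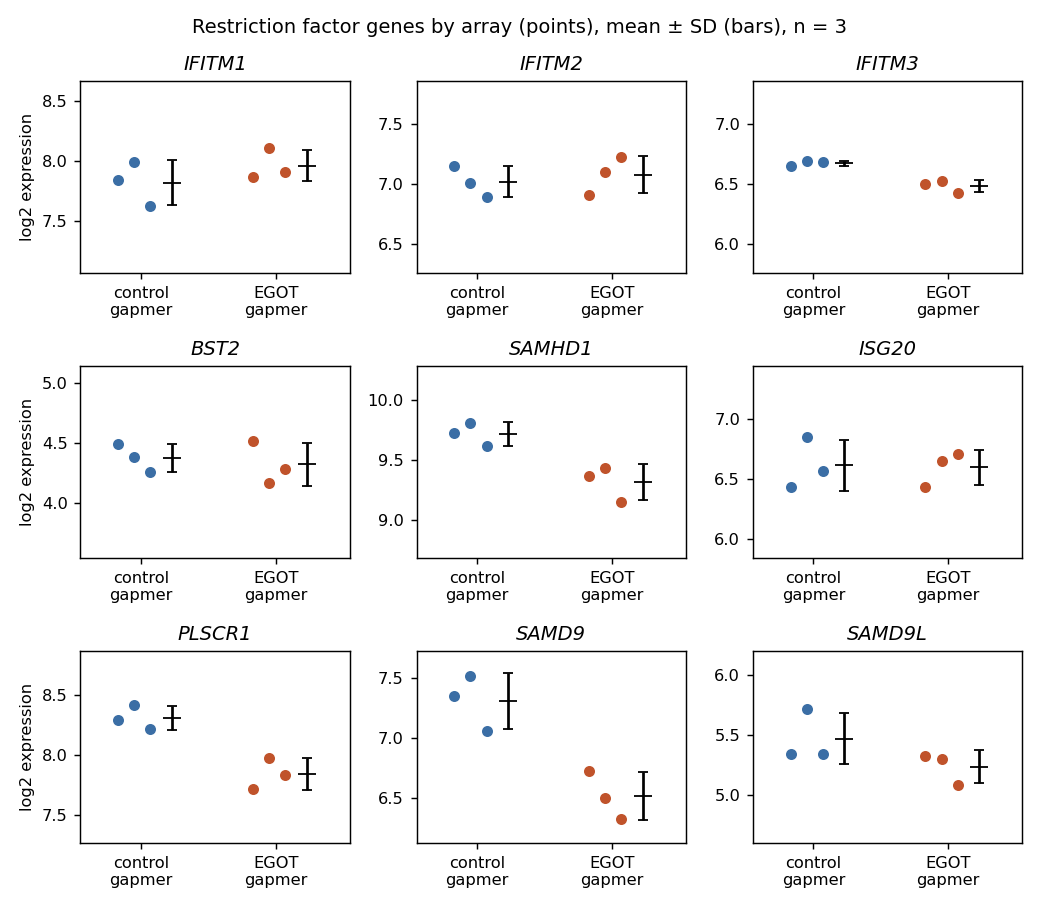
Log2 expression of the 9 measured restriction factor genes, one panel each, in the 3 control gapmer arrays (blue) and 3 EGOT gapmer arrays (orange). Points are arrays in replicate order, bars are the mean ± SD, and every panel spans 1.6 log2 units. The groups are apart in IFITM3, SAMHD1, PLSCR1, SAMD9 and SAMD9L, and they overlap in the other 4.

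SAMD9L, which encodes a related protein with similar antiviral and growth-restraining activity, lies next to SAMD9 on chromosome 7. It read 5.34, 5.71 and 5.35 with the control gapmer and 5.33, 5.30 and 5.08 with the EGOT gapmer. The groups were barely apart, and control gapmer replicates 1 and 3 were almost level with EGOT gapmer replicate 1. The log2 difference was -0.23 with a 95% interval of -0.52 to 0.06 (limma adjusted p = 0.309), and it came to -0.11 without control gapmer replicate 2 and -0.15 without EGOT gapmer replicate 3. Its values lay near the array medians, where background can compress a difference.

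SAMD9 was set against SAMD9L within each array to ask whether their responses differed. SAMD9 minus SAMD9L was 2.00, 1.81 and 1.71 with the control gapmer, compared with 1.40, 1.19 and 1.24 with the EGOT gapmer. All 3 EGOT gapmer values were below all 3 control values, and the mean differed by -0.56 on the log2 scale. A two-sided exact permutation test gave p = 0.1, the smallest that 3 arrays against 3 allow, and 0.2 when adjusted over the 4 pairs of related genes compared. With 3 arrays a group no pair could reach 0.05.

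**Figure D3:**
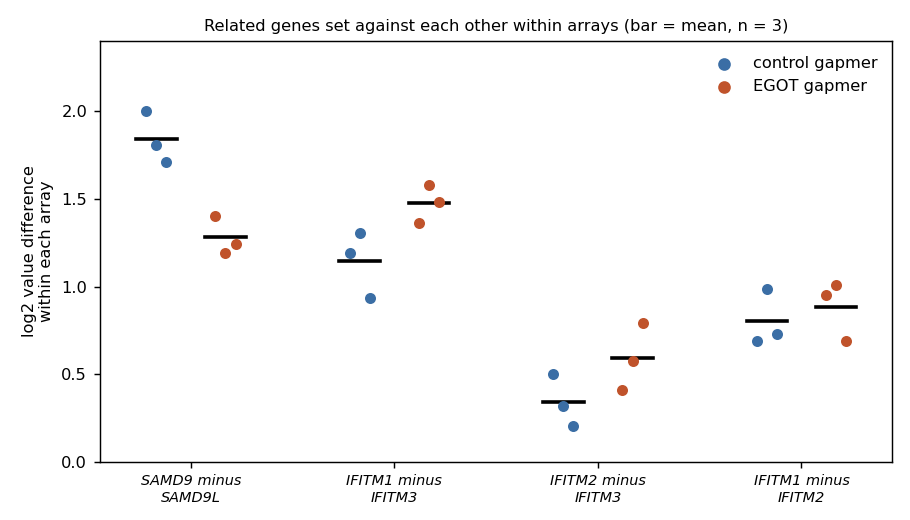
Log2 value of one gene minus that of a related gene within the same array, for 4 pairs, in control gapmer (blue) and EGOT gapmer (orange) arrays, with a bar at the mean of 3 arrays. SAMD9 minus SAMD9L is lower in every EGOT gapmer array, IFITM1 minus IFITM3 is higher in every one, and the 2 groups overlap for the other pairs.

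PLSCR1 encodes a phospholipid scramblase, a membrane protein induced by interferon that takes part in the antiviral response and limits the entry of some viruses. Its log2 level was 8.29, 8.42 and 8.22 with the control gapmer, compared with 7.72, 7.98 and 7.83 with the EGOT gapmer. The groups did not overlap, though the gap between the nearest arrays was narrower than the range within the EGOT gapmer group. The highest EGOT gapmer array was replicate 2, which also had the highest array median. The means were 8.31 ± 0.0997 and 7.84 ± 0.133 (SD, n = 3 each), a log2 difference of -0.47 (standard error 0.0948, limma adjusted p = 0.0318). On the linear scale the level was 0.724 of the control. Its measured relatives PLSCR2 and PLSCR4 had log2 differences of 0.06 and 0.03 (limma adjusted p = 0.779 and 0.880). PLSCR2 had a control gapmer mean of 2.92, below the median of every array, where a change could be missed, and PLSCR4 one of 6.53.

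SAMHD1 encodes an enzyme that breaks down deoxynucleoside triphosphates and so starves reverse transcription. It read 9.73, 9.81 and 9.61 with the control gapmer and 9.37, 9.44 and 9.15 with the EGOT gapmer. Again no EGOT gapmer array reached the lowest control array. The difference of -0.40 (log2, standard error 0.0992) had a 95% interval of -0.63 to -0.16 and amounts to 0.759 of the control level (limma adjusted p = 0.0537). It passed in 4 of 14 alternatives, with quantile normalization repeated (limma adjusted p = 0.0351), cyclic loess (0.0358), a variance trend (0.00299) and dim genes removed (0.00771), and in the remaining 10, which include every left-out array, it did not. Adjusted p over the 14 alternatives ran from 0.00299 to 0.167.

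The IFITM genes encode small membrane proteins that stop enveloped viruses from fusing with the cell, IFITM1 mostly at the cell surface and IFITM2 and IFITM3 mostly in endosomes. They lie together on chromosome 11 and are closely related in sequence, and which parts their probe sets read is not given in the sources used here, so the split of signal between them is uncertain. IFITM3 read 6.65, 6.69 and 6.69 with the control gapmer and 6.50, 6.53 and 6.43 with the EGOT gapmer, groups that were apart by a small step with little spread. Its log2 difference was -0.19 with a 95% interval of -0.35 to -0.03, and it did not pass (limma adjusted p = 0.128). It passed in 1 of 14 alternatives, with dim genes removed, and limma adjusted p over the 14 ran from 0.0307 to 0.295.

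IFITM1 and IFITM2 lay on the other side of 0. IFITM1 read 7.84, 7.99 and 7.62 with the control gapmer and 7.86, 8.11 and 7.91 with the EGOT gapmer, and IFITM2 read 7.15, 7.01 and 6.89 and then 6.91, 7.10 and 7.22. In IFITM2 the groups overlapped widely. In IFITM1 they overlapped through control gapmer replicate 2, which lay above EGOT gapmer replicates 1 and 3, while the other control arrays were below all 3. The 95% interval of the log2 difference was -0.13 to 0.41 for IFITM1 (limma adjusted p = 0.516) and -0.19 to 0.31 for IFITM2 (limma adjusted p = 0.785), and the sign for IFITM2 turned in 3 of 14 alternatives. Within arrays, IFITM1 minus IFITM3 was 1.19, 1.30 and 0.94 with the control gapmer and 1.36, 1.58 and 1.48 with the EGOT gapmer, a mean difference in response of 0.33 with no overlap. The exact permutation test of it gave p = 0.1, again the smallest possible, and 0.2 adjusted over the 4 pairs. IFITM2 minus IFITM3 differed by 0.25 (exact permutation p = 0.2, adjusted 0.267) and IFITM1 minus IFITM2 by 0.08 (exact permutation p = 0.8, adjusted 0.8), with overlapping groups in both.

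BST2 encodes tetherin, which holds budding virions at the cell surface. Its log2 level was 4.49, 4.38 and 4.25 with the control gapmer and 4.51, 4.16 and 4.28 with the EGOT gapmer, all below the median of every array. The groups overlapped, and EGOT gapmer replicate 1 was the highest of the 6. The 95% interval of the difference was -0.32 to 0.21 (limma adjusted p = 0.816), and so near the low end of the scale a change could be missed.

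ISG20 encodes an interferon-induced exonuclease that degrades RNA. It read 6.43, 6.85 and 6.56 with the control gapmer and 6.43, 6.65 and 6.70 with the EGOT gapmer, and the groups shared most of their range. The log2 difference was -0.02 with a 95% interval of -0.32 to 0.28 (limma adjusted p = 0.952), which includes changes as large as that of IFITM3. The sign for BST2 and for ISG20 turned in 2 alternatives each.

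**Figure D4:**
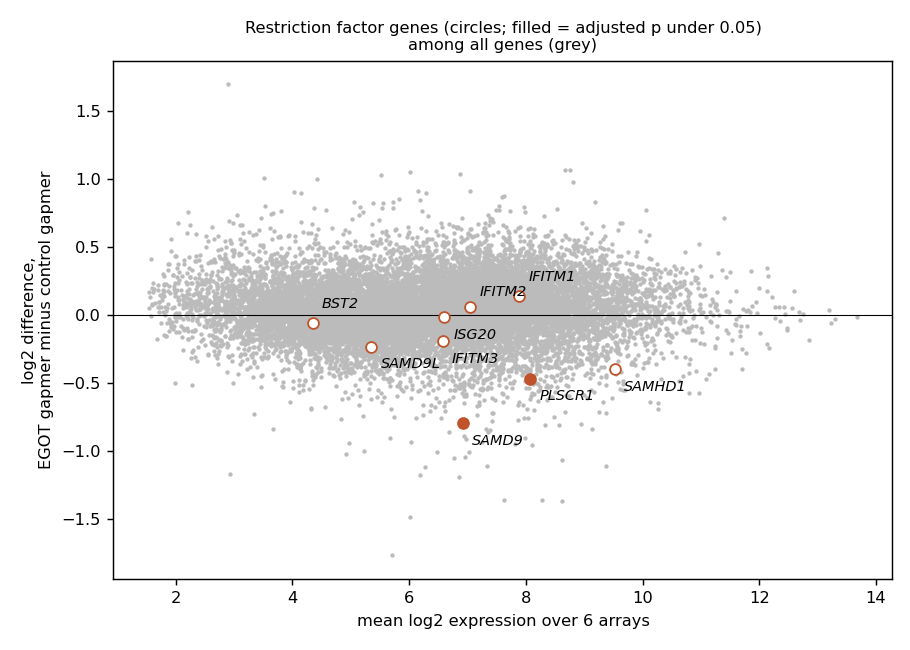
Mean log2 level over the 6 arrays against the log2 difference for all 14812 genes (grey) and the restriction factor genes (circles, filled where the adjusted p is under 0.05). SAMD9 lies at the lower edge of the cloud at -0.79, and BST2 is at the dim end, with a mean level of 4.35.

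Leaving out single arrays ended both calls in most cases while the differences kept their direction. SAMD9 no longer passed without control gapmer replicate 1, 2 or 3 (limma adjusted p = 0.0864, 0.0939 and 0.0612) or without EGOT gapmer replicate 2 or 3 (0.0669 and 0.0756), and passed without EGOT gapmer replicate 1 (0.0402). PLSCR1 no longer passed without control gapmer replicate 1, 2 or 3 (limma adjusted p = 0.0950, 0.116 and 0.0863) or EGOT gapmer replicate 1 or 3 (0.0723 and 0.0888), and passed without EGOT gapmer replicate 2 (0.0456). Across these 6 fits the log2 difference ran from -0.92 to -0.69 for SAMD9 and from -0.54 to -0.40 for PLSCR1. The number of genes called over the whole array fell as well, from 1245 to 58, 9 and 34 without the control arrays in turn and to 579, 505 and 156 without the EGOT gapmer arrays.

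**Figure D5:**
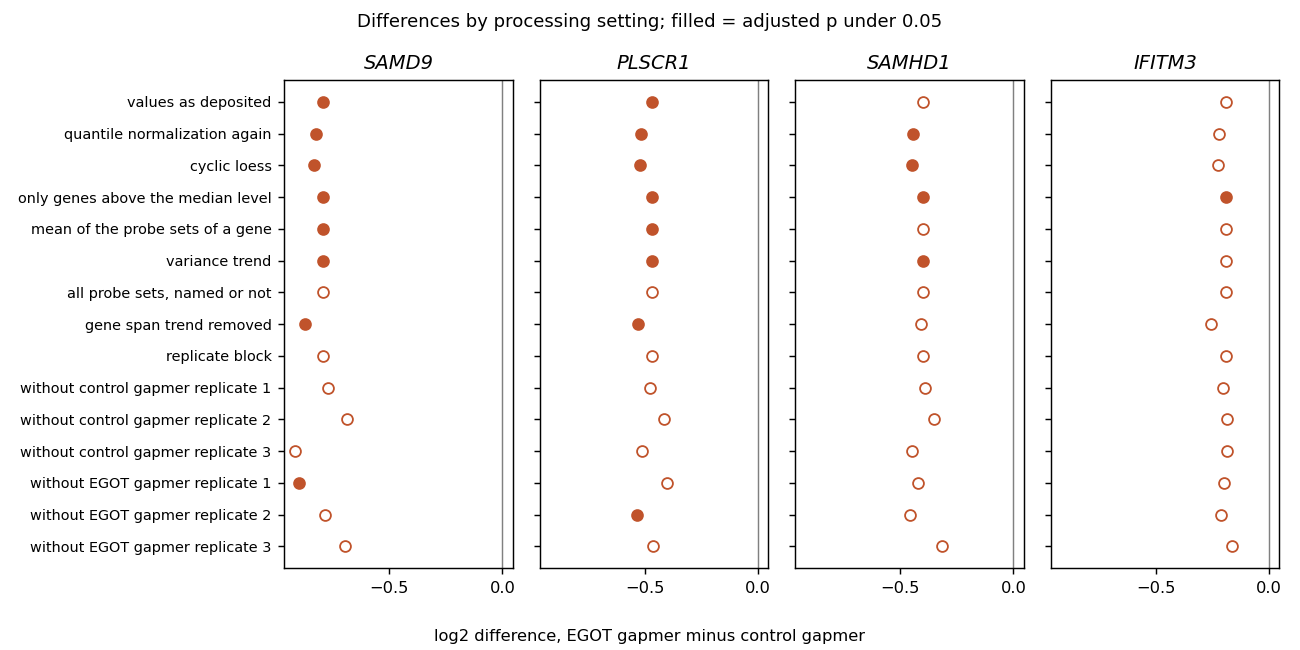
Log2 difference of SAMD9, PLSCR1, SAMHD1 and IFITM3 (panels) under the values as deposited and 14 alternatives (rows), filled where the adjusted p is under 0.05. Each difference stays below 0 in every row. SAMD9 and PLSCR1 each passed in 7 of the 14 alternatives, SAMHD1 in 4 and IFITM3 in 1.

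Several other restriction factors fell as well. Of 36 genes in a list of further factors 20 were measured, and 7 fell, 0 rose and 13 did not pass, where 3.21% of all genes were called lower. This list and those below were chosen with earlier results of these data known, so the shares describe and do not test. Of the 20 genes 14 were above the median level, where 14.2% of genes were called in either direction. RSAD2, which encodes the antiviral enzyme viperin, fell by 1.36 (log2) and the RNA helicase gene DDX60 by 1.01. HERC6, a relative of the ISG15 ligase HERC5, fell by 0.66. TRIM5, which attacks retroviral capsids, fell by 0.55, the cytosolic antibody receptor gene TRIM21 by 0.53 and TRIM22 by 0.46. Limma adjusted p of these 6 lay between 0.00936 for RSAD2 and 0.0282 for TRIM22. The median log2 difference of the 20 was -0.33, against 0.04 for all genes, and 13 were below 0. The 7 became 0 without control gapmer replicate 1 or 2, 2 without control gapmer replicate 3 or EGOT gapmer replicate 3, 2 with every probe set tested and 11 with a variance trend.

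Genes that act on or with the members were examined next. Of 18 partners and regulators 13 were measured, with a median log2 difference of 0.06. Of these 1 fell and 0 rose, where 3.21% of all genes were called lower and 5.2% higher. All 13 were above the median level, where 14.2% of genes were called in either direction. The one that fell was TRIM25, a ubiquitin ligase that works with the product of ZC3HAV1, by 0.54 (limma adjusted p = 0.0239). DCK, a kinase that feeds the deoxynucleotide pool which SAMHD1 drains, was higher by 0.34 without passing (limma adjusted p = 0.0585). Of 20 genes that share a family or domain with the members, including PARP13, an older name of ZC3HAV1, 12 were measured. Of these 1 fell, 1 rose and 10 did not pass, with a median log2 difference of 0.04. Among the 12 genes 10 were above the median level, where 14.2% of genes were called in either direction. SAMD4A, an RNA-binding protein with a SAM domain, fell by 0.64 (limma adjusted p = 0.0142), and ZC3H12A, a zinc finger RNase that degrades cytokine transcripts, rose by 0.41 (limma adjusted p = 0.0289).

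Interferon signalling genes fell in part, and whether this bears on the members was not tested. Of 20 genes 13 were measured, and 3 fell, 0 rose and 10 did not pass, where 3.21% of all genes were called lower and 5.2% higher. The median log2 difference was -0.05, with 8 genes below 0 and 5 above. Of the 13 genes 10 were above the median level, where 14.2% of genes were called in either direction. JAK2, a receptor-bound kinase, fell by 0.55 (log2, limma adjusted p = 0.0293), the transcription factor gene IRF1 by 0.45 (limma adjusted p = 0.0453), and IRF9, the DNA-binding part of the complex that recognises the ISRE, by 0.33 (limma adjusted p = 0.0356). JAK1 and TYK2, the other measured kinases of the list, did not pass, with differences of -0.15 and 0.02 (limma adjusted p = 0.214 and 0.907). IRF9 read 9.35, 9.40 and 9.30 with the control gapmer and 8.97, 9.07 and 9.03 with the EGOT gapmer, so the groups did not overlap. The 3 became 0 without any single control array or EGOT gapmer replicate 1 or 3, 1 without EGOT gapmer replicate 2, and 0 with every probe set tested. STAT2, IFNAR1 and IFNAR2 were not analysed here.

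The nearest measured protein-coding genes on either side of each member or cluster, chosen by position, were examined for comparison. Of these 12 genes 1 was called, where 8.41% of all genes were, and it was CDK6, the cell cycle kinase gene on one side of SAMD9 and SAMD9L, which fell by 0.42 (limma adjusted p = 0.0299). CDK6 did not pass without any single one of the 6 arrays (limma adjusted p = 0.0648 to 0.110), with the gene span trend removed (-0.31, limma adjusted p = 0.0882) or with every probe set tested (limma adjusted p = 0.0946). HEPACAM2, on the other side, differed by -0.06 (limma adjusted p = 0.852). The neighbours of PLSCR1, PLSCR2 and ZIC4, each differed by 0.06 (limma adjusted p = 0.779 and 0.787), and NDRG3 and RBL1 beside SAMHD1 by -0.0011 and -0.09 (limma adjusted p = 0.994 and 0.607). HEPACAM2, PLSCR2 and ZIC4 had control gapmer means of 4.05, 2.92 and 4.69, below the median of every array, where a change could be missed. With the mean of its probe sets ZIC4 differed by 0.28 (limma adjusted p = 0.178).

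As a description, the genes whose 6 values were most like those of SAMD9, out of all 14812, were GALNT9, IL31RA and MAS1, with Pearson correlations of 0.993, 0.988 and 0.988 over the 6 arrays. Those most like PLSCR1 were CTPS2, BCL2L13 and CBS, with correlations of 0.996, 0.995 and 0.995. They were picked as the highest among many with 6 points each, and a difference between the groups adds to each correlation. GALNT9, IL31RA and MAS1 fell, by 0.42, 0.52 and 0.41, whereas CTPS2, BCL2L13 and CBS had differences of -0.38, -0.14 and -0.08 that did not pass (limma adjusted p = 0.0551, 0.235 and 0.486).

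Markers of other cell types were read beside these results. Of 11 leukocyte markers 6 were measured and 2 rose, CD68 by 1.06 (limma adjusted p = 0.00807) and LYZ by 0.57 (limma adjusted p = 0.0171), where 5.2% of all genes were called higher. LYZ has 2 probe sets, and with their mean its difference was 1.13. The other 4, CD2, CD14, NKG7 and CD163, did not pass, with differences of 0.34, -0.06, -0.17 and -0.32. The summed linear level of the 6 was 873 to 928 in the control gapmer arrays and 1418 to 1451 in the EGOT gapmer arrays, whereas that of the 4 without CD68 and LYZ was 143 to 169 and 142 to 169. PTPRC, the defining leukocyte marker, was not analysed here. Of 5 endothelial and 7 fibroblast or stellate markers 2 and 2 were measured and 0 passed, with summed levels of 33.2 to 38.4 and 32.7 to 47.7 for the endothelial pair and 17.5 to 20.8 and 20.6 to 23.7 for the fibroblast pair in control and EGOT gapmer arrays. No marker can be at 0 on this scale, and the part of these markers in the results above was not tested.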

How the data were processed

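Total RNA of 6 HuH7 samples was hybridised to Affymetrix Human Gene ST arrays. Per the submitters' processing notes the authors used RMA, which corrects background, normalizes quantiles and summarises probes, and the deposited unit is log2 expression. Neither its version nor any filter is given in the sources used here. It compresses differences near background and cannot show a change in total RNA per cell. The number of arrays limits the precision.

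Of 44629 probe sets 15835 (35.5%) had 1 gene symbol in GEO's platform annotation, 0 had several and 28794 were unnamed here. All 15835 gene identifiers matched RefSeq GRCh38.p14. Differences are EGOT gapmer minus control gapmer, fitted in limma 3.58.1 under R 4.3.3 (lmFit, eBayes, two-sided, Benjamini-Hochberg over 14812 genes). The fit was tested on simulated data with normal noise independent between genes. It recovered 63 of 100 genes changed by 0.5 (log2) and 97 of 100 changed by 1, with 13 false among 173 calls. Related genes were compared with two-sided exact permutation tests over 20 assignments of the arrays.

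Members and lists were chosen with earlier results of these data known. Named genes are all members, EGOT, EIF2AK2, the leading genes of each list (up to 6 past the threshold, or 2 by smallest p), the 3 genes most correlated with each called member, and genes picked by position or as relatives after values were seen. Alternatives were other normalizations, filters, probe set rules, a variance trend, removal of the trend on gene span, a replicate block and each array left out. The main fit left the arrays unpaired, and the labels do not say whether replicate numbers pair them.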

Additional observations from a re-analysis of the deposited data

How the results depend on the processing

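Over 14 alternatives the differences of SAMD9, PLSCR1, SAMHD1 and IFITM3 stayed below 0, as did that of EGOT over 13, and among these and EIF2AK2 no called difference changed sign. With every probe set tested, named or not, 119 were called, 0 members passed, and SAMD9 (-0.79, limma adjusted p = 0.0777) and PLSCR1 (-0.47, limma adjusted p = 0.0951) no longer did; this setting tests more features. SAMHD1 passed with quantile normalization repeated (-0.44), cyclic loess (-0.45), a variance trend (-0.40) and dim genes removed (-0.40), and IFITM3 passed with dim genes removed (-0.19). Genes called were 2513 with a variance trend, 2547 among the brighter genes, where 4 members passed, and 524 after removal of the gene span trend; the cause was not tested. After quantile normalization or cyclic loess both members still passed. The share of calls that were higher was 61.8% as deposited, 50.2% after quantile normalization and 48.8% after cyclic loess.

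With the replicate number as a block, 0 genes and 0 members passed by limma, 3438 genes having an unadjusted p under 0.05. The log2 differences were unchanged in size, at -0.79 for SAMD9 (limma adjusted p = 0.0634), -0.47 for PLSCR1 (0.0693) and -1.76 for EGOT (0.0543). Deviations of same-numbered arrays from their group means correlated at -0.03, -0.05 and 0.04 over all genes. Such values cannot decide whether arrays of the same number belong together, and the labels do not say.

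With 1 array left out, calls ranged from 9 to 579 genes and from 0 to 1 member, SAMD9 from -0.92 to -0.69 and PLSCR1 from -0.54 to -0.40. Of 18 other named list genes, relatives and correlated genes that were called, 18 kept their sign in every alternative run, 17, all but APOA1, kept the call after both normalizations and 15 lost it with every probe set tested, while 18 lost it without at least 1 of the 6 arrays. Of the list counts, other restriction factors that fell went from 7 to 0 and interferon signalling genes from 3 to 0 with the replicate block. BST2, SAMD9L and EGOT were too dim for the test of brighter genes, as were TRIM22, GALNT9, IL31RA, MAS1, PLSCR2, HEPACAM2 and ZIC4.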
